A study of Saccharomyces cerevisiae with 12 samples.

Results

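The core autophagy genes described here are 10 genes of the budding yeast Saccharomyces cerevisiae, chosen by their systematic names. They are ATG1 (YGL180W), ATG13 (YPR185W), ATG9 (YDL149W), ATG14 (YBR128C), ATG2 (YNL242W), ATG7 (YHR171W), ATG3 (YNR007C), ATG5 (YPL149W), ATG4 (YNL223W) and ATG8 (YBL078C). These are 10 of the 5857 rows of the deposited table that held a value on at least 1 array, with 1 row for each gene. RNA was compared on 12 two-colour arrays, each of which set a treated culture against a control culture of the same strain.

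In the snf1 alkaline group (4 arrays) the cells were of strain DBY4741 with the deletion snf1::KanMX, and in the wild type alkaline group (4 arrays) they were DBY4741 without it. Both were grown at 28 °C in the rich medium YPD, at about pH 5.5, and then held for 10 min with 16 mM KOH, which raised the medium to pH 8, against a control culture with 16 mM KCl. In the snf1 low glucose group (2 arrays) an snf1 mutant of strain DBY746 was washed and moved for 15 min to fresh YP medium with 0.05% glucose, against a control culture washed in the same way and given 2% glucose. The wild type low glucose group (2 arrays) was DBY746 under the same conditions. The genotype label of snf1 alkaline replicate 1 reads snf11::KanMX while its title reads snf1, and the labels of the low glucose mutant name no allele. They also do not say whether the arrays of a group came from separate cultures, so the p-values below measure only the spread between arrays, which may be technical.

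Macroautophagy encloses cytoplasm in a double membrane, the autophagosome, and delivers it to the vacuole, the yeast counterpart of the lysosome, for breakdown. The kinase Atg1 and its partner Atg13 start the process under the control of TORC1, the nutrient-sensing kinase complex, and Atg9 vesicles, a phosphatidylinositol 3-kinase complex and the lipid carrier Atg2 build the membrane. A pair of ubiquitin-like conjugation reactions, run by Atg7, Atg3 and Atg5 among others, attaches Atg8 to the lipid phosphatidylethanolamine, and the protease Atg4 both prepares Atg8 for this step and releases it again. Snf1 is the yeast AMP-activated protein kinase, which cells need to express glucose-repressed genes when glucose runs low.

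Each value is a log2 ratio, treated over control, so that 1 is a 2-fold higher level in the treated culture and -1 a 2-fold lower one. Neither the base of the logarithm nor the direction of the ratio is stated in the sources used here. Base 2 is likely, from the range of the values, and the direction is likely, from the order of the titles. The 4 groups were fitted together with limma and a dye term, two-sided p-values were adjusted by Benjamini-Hochberg over all genes tested in a comparison, and a gene was called at an adjusted p under 0.05. Tests were limited to genes measured on 3 or more of the 4 arrays of an alkaline group and on both arrays of a low glucose group. Arrays held values for 4056 to 5597 genes and for 5 to 10 of the 10 members, the snf1 low glucose arrays having the fewest of both (7 and 5 members). Over all genes, the Pearson correlation between arrays of a group was 0.683 to 0.901 in the snf1 alkaline group, 0.807 to 0.936 in the wild type alkaline group, 0.879 in the snf1 low glucose group and 0.953 in the wild type low glucose group. The SNF1 spot does not check the deletion, because both channels of an array carry the same genotype, and it had a value on only 2 arrays. Equal amounts of RNA were labelled, so a change in RNA content per cell cannot be told apart from no change.

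Before the members' results, 1 row needs separate treatment. Genes of cytosolic ribosomal proteins, whose transcripts move together, served as landmarks for whether rows of the table carry the right names. In the wild type at pH 8, 115 of the 123 ribosomal protein rows with a value outside the left arm of chromosome II had a mean log2 ratio below -0.5, with a median of -0.95. On the left arm of chromosome II, where the names begin with YBL, 0 of 3 were below -0.5 (RPL23A 1.33, RPL32 -0.01 and RPL19B -0.46). The rows that follow the ribosomal protein rows in name order on that arm were all below -0.5, 4 of 4, with a median of -0.94, while elsewhere 38 of 109 following rows were, with a median of -0.32. The values of these few rows thus go against their row names, least clearly for RPL19B. Other rows of the arm were not checked in this way. ATG8 lies on this arm. Its values are therefore given as those of the row named ATG8, and no response of the ATG8 transcript is read from them. The main count of members in each comparison is given with and without that row. Counts under other settings include it. What the spot behind the row holds was not tested.

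**Figure D1:**
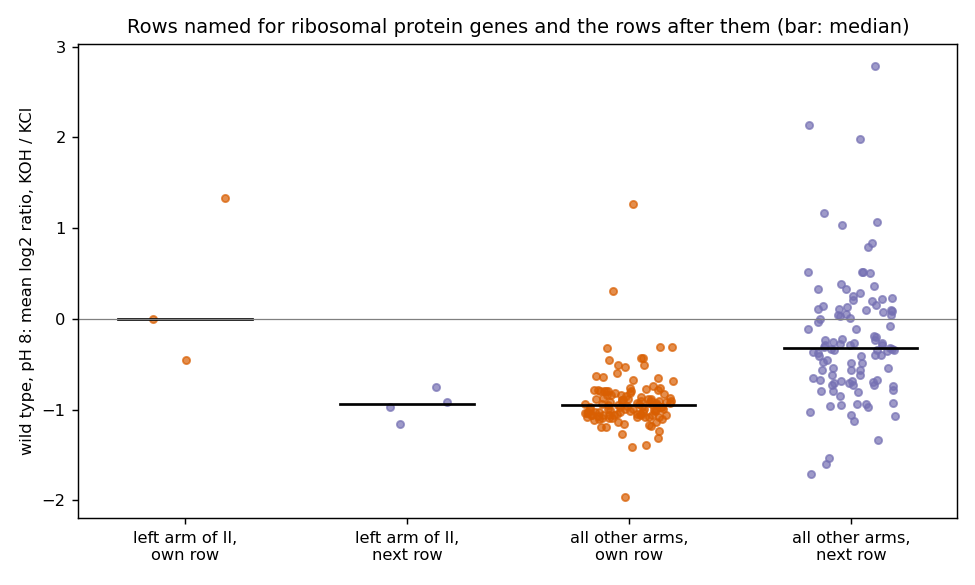
Mean log2 ratio (KOH over KCl) in the wild type at pH 8 of rows named for cytosolic ribosomal proteins and of the rows that follow them, on the left arm of chromosome II and on all other arms. Each point is 1 row and each bar a median; on the left arm of chromosome II the following rows (median -0.94), not the named ones (median -0.01), lie at the level of ribosomal protein rows elsewhere (median -0.95).

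On the arms of the other members most ribosomal protein rows were low in their own row: 8 of 8 ribosomal protein rows were below -0.5 on the arm of ATG1, 7 of 7 on that of ATG2 and ATG4, 7 of 7 on that of ATG5, 4 of 4 on that of ATG7, 8 of 9 on that of ATG9, 3 of 3 on that of ATG13 and 5 of 6 on that of ATG14. The exception on the arm of ATG14, RPS11B, stood at 1.27 and its following row, REB1, at -0.80, as on the left arm of chromosome II. The ribosomal protein rows nearest to ATG14 in name order were at -1.04 (RPL19A) and -1.18 (RPS6B). Following rows were below -0.5 for 2 of 5 on the arm of ATG1, 2 of 4 on that of ATG2 and ATG4, 1 of 5 on that of ATG5, 1 of 4 on that of ATG7, 5 of 9 on that of ATG9, 1 of 3 on that of ATG13 and 3 of 6 on that of ATG14. The arm of ATG3, named YNR, has no ribosomal protein row, so its names were not checked in this way. None of the 10 members overlaps another annotated gene in RefSeq.

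At pH 8, ATG1, ATG3, ATG5 and ATG7 were called higher after 10 min in the mutant as well as in the wild type. In snf1 cells 5 of 8 tested members were called higher and 0 lower, with a median log2 ratio of 0.55 over the tested members, against -0.04 over all 4591 genes tested. With ATG9 and ATG14 included, which had 2 snf1 values each, the median over all 10 members was 0.296, and it was 0.319 over 10 members without snf1 alkaline replicate 1 and 0.259 without replicate 2. Leaving out replicate 1 or 2 left 4 called members. In wild type cells 7 of 10 were higher and 1 lower, with a median of 0.65, against -0.05 over all 4979 genes. Over all genes tested, 21.7% were called higher and 26.2% lower in snf1 cells, and 25.6% higher and 30% lower in wild type cells. Without the row named ATG8 the counts were 5 of 7 in snf1 cells and 7 of 9 in wild type cells.

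**Figure D2:**
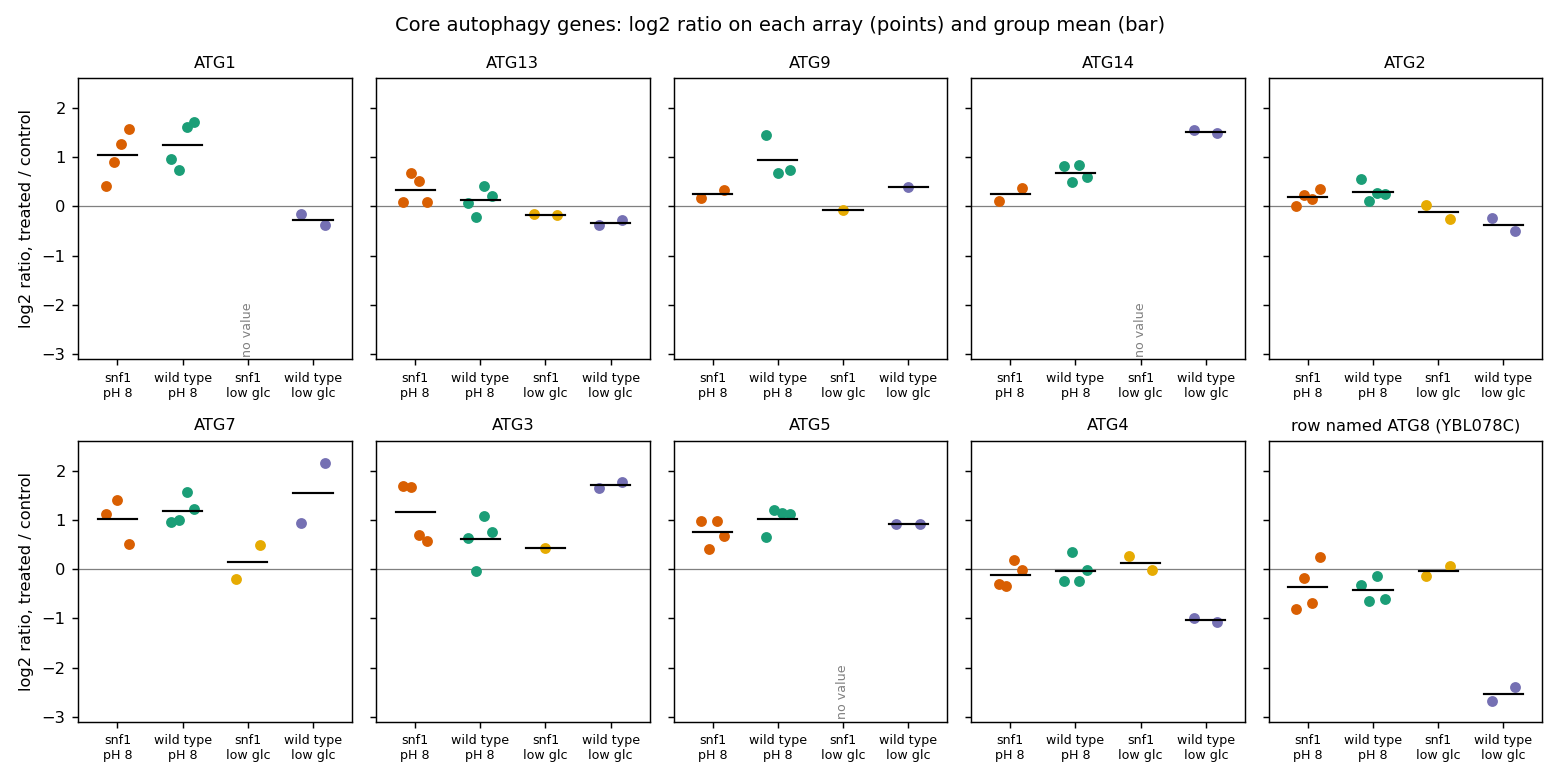
Log2 ratio of treated over control (vertical axis) of each member on each array, by group (points, replicates from left to right), with the group mean as a bar; members without a value in a group are marked. ATG1 lies above 0 on all 8 alkaline arrays, and ATG3, ATG7 and ATG14 are above 0 on both wild type low glucose arrays while ATG4 and the row named ATG8 are below.

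The initiating kinase and its partner differed. ATG1 had log2 ratios of 0.42, 0.91, 1.27 and 1.57 in snf1 cells, against 0.96, 0.74, 1.61 and 1.71 in wild type cells. All 8 arrays were above 0 and the genotypes overlapped. The ratio rose by 1.04 in snf1 cells (SE 0.201, adjusted p = 0.00152) and by 1.25 in wild type cells (SE 0.201, adjusted p = 0.000377), which is 2.06-fold and 2.38-fold. ATG13, which encodes the subunit through which TORC1 restrains Atg1, stood at 0.10, 0.67, 0.51 and 0.09 in snf1 cells, against 0.08, -0.21, 0.42 and 0.22 in wild type cells. Its change was small in both: it rose in snf1 cells, by 0.34 (SE 0.107, adjusted p = 0.0197), and was not called in wild type cells, at 0.13 (SE 0.107, adjusted p = 0.337). The call in snf1 cells was lost without snf1 alkaline replicate 2 (adjusted p = 0.118) or replicate 3 (adjusted p = 0.0526).

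The genes for membrane supply rose in wild type cells. ATG9 encodes the membrane protein whose vesicles seed the autophagosome, and it had values of 0.17 and 0.33 on the 2 snf1 arrays that measured it, against 1.45, 0.67 and 0.73 on 3 wild type arrays. With 2 values the gene was not tested in snf1 cells. In wild type cells it rose by 0.93 (SE 0.185, adjusted p = 0.00528, n = 3 arrays, limma). ATG14, the subunit that directs the phosphatidylinositol 3-kinase complex to autophagy, was likewise measured on only 2 snf1 arrays, at 0.11 and 0.37, against 0.81, 0.49, 0.85 and 0.60 in wild type cells. How often other genes separate between so few arrays was not counted, so no genotype difference is read from the values of ATG9 or ATG14. ATG14 rose by 0.69 in wild type cells (SE 0.104, adjusted p = 0.000572). The snf1 values of ATG9 and ATG14 all came from replicates 3 and 4. These arrays correlated at 0.837 over all genes, against 0.683 to 0.742 with replicates 1 and 2, which gave no value for either gene. ATG2, which encodes the lipid transfer protein between the endoplasmic reticulum and the growing membrane, had ratios of 0.01, 0.24, 0.14 and 0.35 in snf1 cells, against 0.55, 0.10, 0.28 and 0.26 in wild type cells. All 8 values were above 0, but near it. The gene was not called in snf1 cells, at 0.18 (adjusted p = 0.165), and was called higher in wild type cells, by 0.30 (SE 0.103, adjusted p = 0.0285). That call was lost without wild type alkaline replicate 1 (adjusted p = 0.167), 3 (adjusted p = 0.0764) or 4 (adjusted p = 0.0712).

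Among the members of the conjugation systems, ATG7, ATG3 and ATG5 rose in both genotypes and ATG4 was not called in either. ATG7, the E1-like enzyme that activates both ubiquitin-like proteins, had log2 ratios of 1.12, 1.41 and 0.51 in snf1 cells, where replicate 4 gave no value, against 0.96, 1.00, 1.57 and 1.23 in wild type cells. All 7 values were above 0.5. The increase was 0.95 in snf1 cells (SE 0.223, adjusted p = 0.00499, a fit over 3 arrays) and 1.19 in wild type cells (SE 0.19, adjusted p = 0.00037). Without snf1 alkaline replicate 1 the value was 0.68 and the call was lost (adjusted p = 0.095). ATG3, the E2-like enzyme that passes Atg8 to its lipid, had 1.69, 1.68, 0.70 and 0.57 in snf1 cells, against 0.64, -0.05, 1.07 and 0.76 in wild type cells. In snf1 cells replicates 1 and 2 stood well above replicates 3 and 4, and in wild type cells replicate 2 was near 0. The increase was 1.16 in snf1 cells (SE 0.212, adjusted p = 0.00111) and 0.61 in wild type cells (SE 0.212, adjusted p = 0.0319). The wild type call was lost without wild type alkaline replicate 1 (adjusted p = 0.0659), 3 (adjusted p = 0.139) or 4 (adjusted p = 0.138).

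ATG5, which encodes the acceptor of Atg12 in the complex that aids the transfer of Atg8, showed 0.97, 0.40, 0.97 and 0.66 in snf1 cells, against 0.65, 1.21, 1.13 and 1.12 in wild type cells. Wild type replicate 1 stood apart from the other 3, which lay close together. The gene rose by 0.75 in snf1 cells (SE 0.12, adjusted p = 0.000466) and by 1.03 in wild type cells (SE 0.12, adjusted p = 3.94e-05). ATG4, the protease gene, had -0.31, -0.34, 0.19 and -0.01 in snf1 cells, against -0.23, 0.34, -0.24 and -0.02 in wild type cells. Both groups straddled 0, and neither mean was called (-0.12, adjusted p = 0.424 in snf1 cells, and -0.04, adjusted p = 0.8 in wild type cells). Consecutive arrays of the snf1 alkaline group (1 with 2, and 3 with 4) correlated at 0.901 and 0.837, against 0.683 to 0.742 across these pairs, and in the wild type alkaline group the values were 0.845 and 0.936 within and 0.807 to 0.866 across. When such pairs were averaged, the calls of ATG13 in snf1 cells (adjusted p = 0.136) and of ATG2 (adjusted p = 0.107) and ATG3 (adjusted p = 0.165) in wild type cells were lost, and those of ATG1, ATG5 and ATG7 remained in both genotypes.

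The row named ATG8 held -0.81, -0.19, -0.68 and 0.25 in snf1 cells, against -0.32, -0.66, -0.14 and -0.61 in wild type cells. It was not called in snf1 cells (-0.36, adjusted p = 0.0805) and was called lower in wild type cells (-0.43, adjusted p = 0.0341). The wild type call was lost without wild type alkaline replicate 1 (adjusted p = 0.0769), 2 (adjusted p = 0.121) or 4 (adjusted p = 0.116), and without snf1 alkaline replicate 4 the snf1 value of -0.62 was called (adjusted p = 0.00155). The next row in name order, YBL079W, is named for the nucleoporin NUP170 and was looked at after its values were seen. It held 1.17, 1.17, 1.59 and 1.34 in snf1 cells, against 2.00, 2.28, 2.55 and 2.30 in wild type cells.

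Whether loss of Snf1 changed the response at pH 8 was tested as the difference of the genotypes. 0 of 8 tested members were called, and 0 of 8 had an unadjusted p under 0.05 by limma. Without the row named ATG8, 0 of 7 were called. Over all 4380 genes tested, 0.411% were called higher and 0.753% lower in snf1 cells than in wild type cells. The differences, snf1 minus wild type, had a median of -0.10 over the 8 members and ran among the tested members from -0.28 for ATG5 (95% interval -0.65 to 0.10, adjusted p = 0.488) to 0.55 for ATG3 (95% interval -0.11 to 1.22, adjusted p = 0.409). For ATG1 the difference was -0.21, with an interval of -0.84 to 0.42. These intervals are not adjusted for the number of genes, and differences out to their ends are compatible with the values. Larger differences could also have gone without a call, so the genotypes are not shown to respond alike. ATG9 and ATG14, with 2 snf1 values each, all from replicates 3 and 4, were below the minimum for a test. Their estimated differences were -0.68 for ATG9 (95% interval -1.37 to 0.005) and -0.44 for ATG14 (95% interval -0.86 to -0.03), unadjusted and with no call. The row YBL079W differed between the genotypes, by -0.97 (adjusted p = 0.0222).

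**Figure D3:**
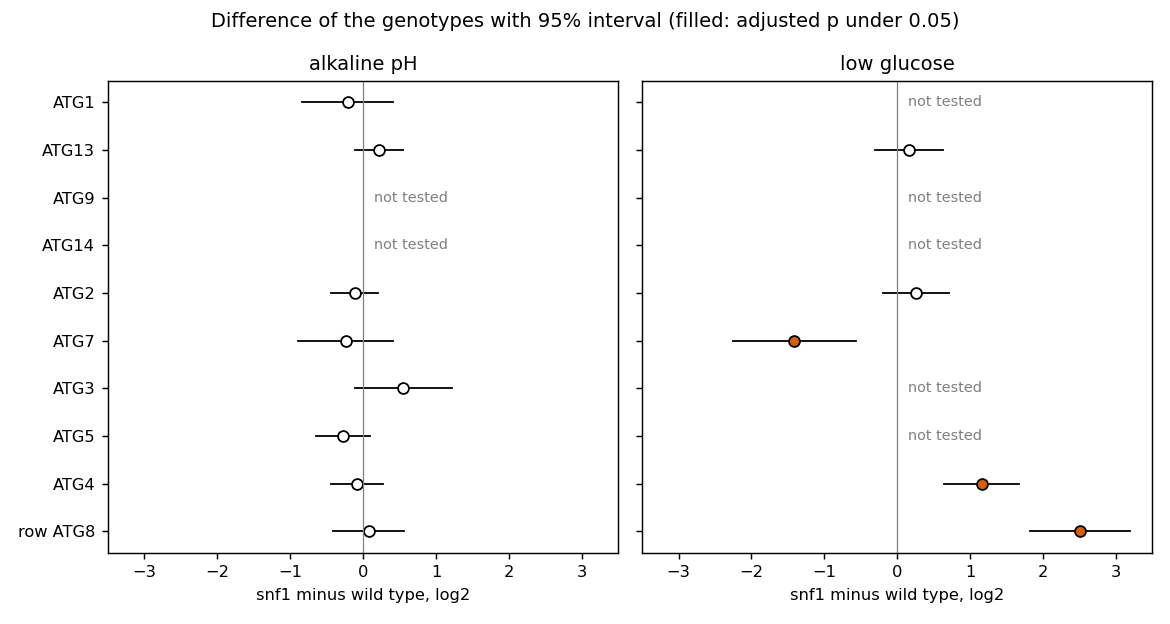
Difference of the log2 ratios, snf1 minus wild type, for each member (points) with its 95% interval (lines), at alkaline pH and at low glucose; filled points were called at an adjusted p under 0.05. At pH 8 all 8 intervals include 0, while at low glucose ATG4, ATG7 and the row named ATG8 have intervals that do not.

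At low glucose the wild type members moved in both directions, and none of the 5 members that could be tested was called in snf1 cells. In snf1 cells 0 of these 5 were called, with 0 unadjusted p-values under 0.05 by limma, against 28.9% higher and 16.9% lower over 3703 genes. In wild type cells 4 of 9 tested members were higher and 3 lower, against 33.7% higher and 31.5% lower over 5225 genes, so the share of members called was near that of all genes. Without the row named ATG8 the counts were 0 of 4 in snf1 cells and 6 of 8, 4 of them higher, in wild type cells. The median over the tested members was -0.03 in snf1 cells (0.12 over all genes) and -0.27 in wild type cells (0.05 over all genes), and without the row named ATG8 it was 0.01 in snf1 cells and 0.33 in wild type cells.

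ATG7 and ATG3, the E1-like and E2-like genes, rose in wild type cells. ATG7 had -0.20 and 0.48 in snf1 cells, against 0.94 and 2.16 in wild type cells. The wild type pair lay far apart. The change was 0.14 in snf1 cells (adjusted p = 0.693) and 1.55 in wild type cells (SE 0.269, adjusted p = 0.000466), a 2.93-fold increase. ATG3 had a single snf1 value of 0.43, against 1.65 and 1.76 in wild type cells, where it rose 3.26-fold (1.71, SE 0.3, adjusted p = 0.000502). ATG14 gave no value in snf1 cells and 1.54 and 1.49 in wild type cells, and rose there 2.86-fold (adjusted p = 2.55e-05). ATG5 was also without a value in snf1 cells and stood at 0.92 and 0.91 in wild type cells, a 1.89-fold increase (adjusted p = 0.000724). For ATG3, ATG5 and ATG14 a genotype difference at low glucose could therefore not be tested.

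ATG4, the protease gene, went the other way in the wild type. Its ratios were 0.28 and -0.02 in snf1 cells, against -0.997 and -1.07 in wild type cells. The change was 0.13 in snf1 cells (adjusted p = 0.556) and -1.03 in wild type cells (SE 0.165, adjusted p = 0.000195), the wild type being 2.04-fold lower at 0.05% than at 2% glucose. ATG2 had 0.03 and -0.26 in snf1 cells, against -0.24 and -0.50 in wild type cells. It was called lower in wild type cells, at -0.37 (SE 0.146, adjusted p = 0.0431), but not without wild type low glucose replicate 1 (adjusted p = 0.0779) or replicate 2 (adjusted p = 0.455). The initiating genes were not called: ATG1 had no snf1 value and -0.16 and -0.38 in wild type cells (adjusted p = 0.429). ATG13 had -0.16 and -0.18 in snf1 cells (adjusted p = 0.383), against -0.38 and -0.28 in wild type cells (adjusted p = 0.0738). ATG9 was measured on 1 array of each group, at -0.08 in snf1 cells and 0.39 in wild type cells, and was not tested.

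The row named ATG8 held -0.14 and 0.07 in snf1 cells, against -2.68 and -2.39 in wild type cells, and was called lower in wild type cells (-2.53, adjusted p = 1.79e-06). The adjacent row YBL079W held -0.39 and -0.11 in snf1 cells, against 2.28 and 3.01 in wild type cells, the opposite sign. On the other side, the row YBL077W followed the row named ATG8, with a Pearson correlation of 0.983 over 12 arrays, against -0.554 for the row YBL079W. These correlations describe rows that share the same arrays. Beyond YBL079W, the row YBL080C held -0.65 and -0.41 in snf1 cells, against -2.93 and -2.69 in wild type cells. Beyond YBL077W, the row YBL076C held 0.27 and -0.17 in snf1 cells, against 0.47 and 0.86 in wild type cells.

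The test of the genotype difference at low glucose called 3 of 5 members, 2 higher and 1 lower in snf1 cells than in wild type cells, where 27.6% of 3651 genes were called higher and 13% lower. The members' median difference was 0.26 (0.18 over all genes), and 0.21 without the row named ATG8, when 2 of 4 members were called. ATG4 was higher by 1.16 (SE 0.234, adjusted p = 0.00226) and ATG7 was lower, by -1.41 (SE 0.38, adjusted p = 0.0129). The row named ATG8 differed by 2.50 (adjusted p = 0.00014) and the row YBL079W by -2.89 (adjusted p = 2.2e-05). For ATG2 the difference was 0.26 (adjusted p = 0.347) and for ATG13 0.16 (adjusted p = 0.58). The call of ATG7 was lost without wild type low glucose replicate 2 (-0.89, adjusted p = 0.165) or snf1 low glucose replicate 1 (-1.22, adjusted p = 0.107), and when each array was scaled to the same spread the calls of both ATG4 (0.73, adjusted p = 0.0825) and ATG7 (-0.82, adjusted p = 0.154) were lost. The median absolute deviation of all genes was 0.672 and 0.526 on the snf1 low glucose arrays, against 0.95 and 0.974 on the wild type ones, and how much of the difference this spread carries was not tested.

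Alkaline pH and low glucose gave different patterns across the members in wild type cells. Strain, time and treatment differ together here, so they cannot be told apart. The difference, alkaline minus low glucose, was called for 6 of 9 members, 4 higher and 2 lower at alkaline pH, where 20.9% of 4825 genes were called higher and 24.3% lower, and for 5 of 8, 3 of them higher, without the row named ATG8. ATG1 was higher at alkaline pH by 1.52 (SE 0.348, adjusted p = 0.00602), being raised at pH 8 and not called at low glucose. ATG4 was higher by 0.99 (adjusted p = 0.00275) and ATG2 by 0.67 (adjusted p = 0.0115), both being below 0 on the low glucose arrays. ATG3 and ATG14, which rose under both treatments, were lower at alkaline pH, by -1.10 (adjusted p = 0.0325) and -0.83 (adjusted p = 0.00693). ATG5 and ATG7 also rose under both, and no difference was called for either (0.11, 95% interval -0.35 to 0.57, adjusted p = 0.688 for ATG5, and -0.36, 95% interval -1.09 to 0.37, adjusted p = 0.39 for ATG7).

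**Figure D4:**
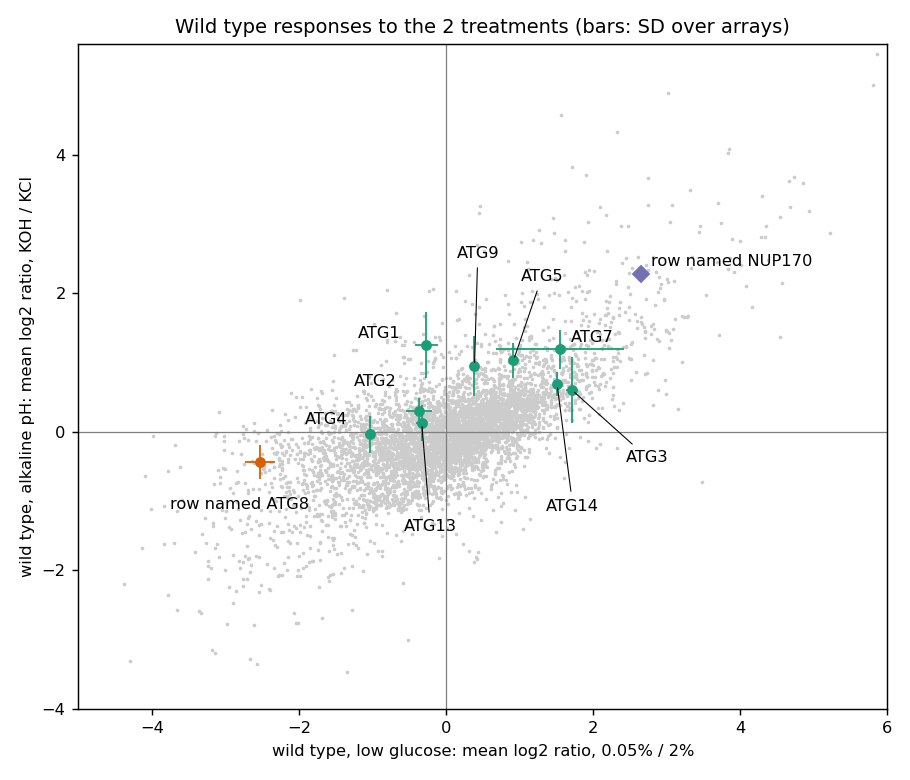
Mean log2 ratio in wild type cells at alkaline pH (vertical axis, KOH over KCl) against that at low glucose (horizontal axis, 0.05% over 2%) for all genes with both means (grey) and for the members (labelled; bars are the SD over arrays, absent where only 1 array gave a value). ATG3, ATG5, ATG7, ATG14 and ATG9 (only 1 array at low glucose) lie in the upper right. ATG1 lies above the horizontal line and left of the vertical one, and the rows named ATG8 and NUP170 lie in opposite corners.

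When each array was scaled to the same spread, 2 of the 9 differences between treatments were called, ATG1 and the row named ATG8, both higher at alkaline pH, and ATG3 (-0.37, adjusted p = 0.557), ATG14 (-0.16, adjusted p = 0.63), ATG4 (0.69, adjusted p = 0.0649) and ATG2 (0.62, adjusted p = 0.052) were not. Leaving out wild type low glucose replicate 2 ended the calls of ATG1 (adjusted p = 0.0753), ATG2 (adjusted p = 0.15) and ATG3 (adjusted p = 0.129), and leaving out replicate 1 those of ATG3 (adjusted p = 0.175) and ATG14 (adjusted p = 0.0813); the call of ATG3 also ended without wild type alkaline replicate 1 (adjusted p = 0.0593) or 2 (adjusted p = 0.0696). In snf1 cells 0 of 5 tested members differed between treatments, 2 of 5 with an unadjusted p under 0.05 by limma (ATG13 0.51, adjusted p = 0.0787, and ATG7 0.81, adjusted p = 0.137), against 3.34% higher and 13.8% lower over 3290 genes. Leaving out the row named ATG8, 0 of 4 were called. Without snf1 alkaline replicate 3 the ATG7 difference of 1.13 was called (adjusted p = 0.0298).

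Of the other genes that form the autophagosome, a list of 11, 1 of 7 was called higher and 1 lower in snf1 cells at pH 8 (21.7% and 26.2% over all genes), and 5 of 9 higher and 1 lower in wild type cells (25.6% and 30% over all genes). ATG29, a scaffold subunit that joins the Atg1 complex in starvation, rose by 1.96 in wild type cells. On snf1 replicates 3 and 4 it had 1.315 and 0.909, too few values for a test. Its partner ATG17 rose by 0.53 in snf1 cells and 0.69 in wild type cells. VPS34, the phosphatidylinositol 3-kinase, rose by 0.44 in wild type cells and was not called in snf1 cells (0.27, adjusted p = 0.125). ATG10, the E2-like enzyme for Atg12, fell in both genotypes, to -0.38 each. ATG12, which encodes the ubiquitin-like partner of Atg5, was not called in either genotype. At low glucose 0 of 3 were called in snf1 cells (28.9% higher and 16.9% lower over all genes), and 5 of 9 were higher and 2 lower in wild type cells (33.7% and 31.5% over all genes), with ATG29 at 1.54. ATG12 had -0.26 and 0.10 in snf1 cells, against 1.11 and 1.01 in wild type cells. Of 3 tested genes of this list, 1 differed between the genotypes there, ATG12. It was lower in snf1 cells (-1.14, adjusted p = 0.000764), where 13% of all genes were lower.

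For genes of selective autophagy and of the cytoplasm-to-vacuole pathway, a list of 15, and for the lists after it, the shares over all genes in each group are those just given. At pH 8, 6 of 14 were called higher and 1 lower in snf1 cells and 10 of 15 higher and 1 lower in wild type cells. Between the genotypes 0 of 14 differed there, where only 0.411% of all genes were higher and 0.753% lower in snf1 cells. ATG19, the receptor for aminopeptidase cargo, rose by 1.22 in snf1 cells and 1.54 in wild type cells. ATG20, a sorting nexin, rose by 0.95 in snf1 cells and 1.62 in wild type cells. ATG33, a gene of mitochondrial autophagy, rose by 1.00 in snf1 cells and 1.09 in wild type cells. ATG39, the receptor for the nuclear envelope, rose by 1.79 in wild type cells. In snf1 cells ATG39 was not called (0.587, adjusted p = 0.0628), nor was its genotype difference (-1.205, adjusted p = 0.102). At low glucose 5 of 10 were higher and 1 lower in snf1 cells, and 9 of 15 higher and 3 lower in wild type cells, and the genotype difference was called for 8 of 10, with 6 of them lower in snf1 cells and 2 higher, where 13% of all genes were lower and 27.6% higher. ATG36, the peroxisome receptor, had 0.16 and -0.04 in snf1 cells, against 1.80 and 2.25 in wild type cells. The difference was -1.96 (SE 0.227, adjusted p = 0.000179). ATG34, a receptor related to ATG19, differed by -1.72 (adjusted p = 0.000482), with 0.18 and 0.33 in snf1 cells, against 1.75 and 2.21 in wild type cells. For this and all the other lists, genotype differences at low glucose are given without scaling the arrays to one spread. Over all genes, 467 such differences were called after scaling, against 1481 without it.

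The vacuolar hydrolases and their cargo, a list of 9 of which 8 had a row with values, were called higher at pH 8 in 8 of 8 cases in each genotype (21.7% of all genes in snf1 cells and 25.6% in wild type cells). The genotype difference at pH 8 was called for 0 of 8 (0.411% of all genes higher and 0.753% lower), with a median of -0.33. It was -0.71 for AMS1, a vacuolar mannosidase (adjusted p = 0.0611), and -0.71 for PRB1 (adjusted p = 0.308). At low glucose 7 of 8 were higher in snf1 cells and 5 of 8 in wild type cells (28.9% and 33.7% of all genes), with 0 lower. PRB1, proteinase B, stood at 1.38, 1.38, 2.77 and 2.69 in snf1 cells at pH 8, against 2.38, 2.63, 3.03 and 3.03 in wild type cells. At low glucose it had 1.72 and 1.41 in snf1 cells, against 1.19 and 1.17 in wild type cells. All 12 values were above 1. ATG42, a vacuolar carboxypeptidase, rose by 1.69 in snf1 cells and 2.01 in wild type cells at low glucose, and APE1, the aminopeptidase that the cytoplasm-to-vacuole pathway carries, by 1.99 in snf1 cells and 1.59 in wild type cells. Of 8 genes, 1 differed between the genotypes at low glucose, APE3, by 0.51 (adjusted p = 0.038). Of all genes, 27.6% were higher and 13% lower in snf1 cells in that comparison.

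Genes of vacuole fusion and autophagic body breakdown, a list of 10, were called at pH 8 for 5 of 9 in snf1 cells, 2 higher and 3 lower, and for 4 of 9 in wild type cells, 2 higher and 2 lower. The SNARE gene NYV1 rose by 0.43 in snf1 cells and 0.94 in wild type cells, and ATG22, a vacuolar amino acid exporter, fell to -0.54 in both. At low glucose 1 of 5 was higher in snf1 cells, and 3 of 10 were higher and 1 lower in wild type cells, among them VTI1, another SNARE gene, at 1.65.

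TORC1 and its regulators, a list of 17, moved both ways at pH 8, with 4 of 14 higher and 4 lower in snf1 cells and 6 of 15 higher and 3 lower in wild type cells. LST8, a TORC1 subunit, rose by 1.04 in snf1 cells and 0.81 in wild type cells (SE 0.309 each), mostly on replicates 1 and 2. It had 1.901, 1.871, 0.341 and 0.059 in snf1 cells, against 1.435, 1.30, 0.14 and 0.37 in wild type cells. The row named SEA4 was at 1.05 in snf1 cells and 1.02 in wild type cells. It is on the left arm of chromosome II, where names and values of the ribosomal protein rows disagree. At low glucose 2 of 10 were higher and 1 lower in snf1 cells, and 6 of 15 were higher and 7 lower in wild type cells. The TORC1 target kinase SCH9 (-2.28), TOR2 (-2.18), and KOG1 (-2.10), a TORC1 subunit, had the largest wild type decreases of the list. Between the genotypes at low glucose 4 of 9 were higher and 1 lower in snf1 cells (27.6% and 13% over all genes). The difference was 2.05 for SCH9 (adjusted p = 4.08e-05) and 1.34 for TOR2 (adjusted p = 0.000456). All these counts include the row named SEA4. Of 12 transcription regulators of autophagy genes, 1 was higher and 1 lower at pH 8 in snf1 cells, and 2 were higher and 2 lower in wild type cells. At low glucose 1 of 9 was higher in snf1 cells, and 2 of 12 were higher and 5 lower in wild type cells, with the stress activator MSN4 at 1.35, PHO23, a subunit of a histone deacetylase complex, at 1.19, the corepressor gene SIN3 at -1.47 and GCN4, the activator of amino acid synthesis genes, at -1.17.

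The members' profiles over the arrays differed from each other. Pearson correlations between members with values on at least 10 arrays ran from -0.844 for ATG3 with ATG4 to 0.83 for ATG2 with ATG1, or to 0.861 when the row named ATG8 (with ATG1) is counted. All points share the arrays and their 4 groups, so these are descriptions. Over named genes with values on at least 10 arrays, those most like ATG1 were MUP1 (0.978), YME2 (0.968) and SFT2 (0.959), those most like ATG3 were TTI2 (0.97), RRT6 (0.951) and COG7 (0.95), and those most like ATG4 were TRP5 (0.984), ECM33 (0.98) and SSH1 (0.979). ATG7 was closest to IBA57 (0.933), MLH3 (0.903) and TOA1 (0.878), ATG5 to RTK1 (0.886), RPN9 (0.879) and DOT6 (0.866), ATG2 to PEX6 (0.963), VAN1 (0.929) and VTC5 (0.911), and ATG13 to KAR3 (0.911), CFT2 (0.898) and PRP5 (0.894). The row named ATG8 was closest to GUS1 (0.981), CDC48 (0.972) and PAN1 (0.972), and the row YBL079W to PHO2 (0.959), PEP12 (0.932) and MPC3 (0.931). ATG9 and ATG14 had values on fewer than 10 arrays and were left out.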

How the data were processed

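The authors deposited 1 log ratio per spot and array. The base was taken as 2 because the largest value, 7.475, would be a 178-fold change in base 2 but 1760-fold in base e. The latter is more than the 655-fold span from 100 units to the 16-bit maximum of 65535. The range makes base 2 likely but does not settle it. Per the labels, 8 µg of total RNA was labelled from oligo(dT), the treated sample carried Cy3 and Cy5 on equal numbers of arrays of each group, and spots under 120 µm or under 100 units in Cy3 and Cy5 were left out. How the authors normalized the log2 ratios is not stated in those sources. Medians of the arrays were between -0.065 and 0.112, and nothing further was applied. Arrays of opposite dye orientation correlated at 0.539 or more over 36 pairs.

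Of 6212 rows, 355 held no value; names came from RefSeq's R64 table by locus tag for 5351 of the others, 4897 with a symbol. limma 3.58.1 in R 4.3.3 (lmFit, eBayes, 4.56 prior degrees of freedom) fitted 4 group means and a dye term, so that the low glucose groups, with 2 arrays each, use a spread pooled over the 4 groups. In wild type at low glucose 52 tested genes, none of them a member, had no residual degrees of freedom. The fit was tested on simulated data. With array data no count depth exists, and precision depends on how many arrays a group has.

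The members and the other 6 gene lists were chosen with earlier results of these data known. All members are named. From each other list, genes named in a comparison are taken from the 4 called there with the largest change (ATG10 in snf1 cells, given for the wild type too; SEA4 with its row's limit), and for each member the 3 named genes with the highest correlation. The check of row names with ribosomal protein rows, and the row YBL079W, were chosen after values were seen. Other settings tried were array centring and scaling, no dye term, other minimum numbers of values, arrays of a treatment alone, the replicate number as a block, averaged or blocked consecutive arrays, and each array left out.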

Additional observations from a re-analysis of the deposited data

Results flagged for a closer look

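At pH 8 ATG5 in wild type cells had 1 array apart from the others. Replicate 1 stood at 0.65 and the other 3 at 1.12 to 1.21, so the gap was 0.847 of the whole range, above Dixon's 95% critical value for 4 samples. Chance alone passes that value in about 1 in 20 groups.

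Responses to low glucose differed between the genotypes, by the test of the difference itself, for 3 members. The differences, snf1 minus wild type, were 1.16 for ATG4, -1.41 for ATG7 and 2.50 for the row named ATG8. Wild type responses differed between treatments for 6 members, again by the test of the difference. Alkaline minus low glucose was 1.52 for ATG1, 0.67 for ATG2, -1.10 for ATG3, 0.99 for ATG4, 2.10 for the row named ATG8 and -0.83 for ATG14. Strain and time differ between the treatments too.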

How the results depend on the processing

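Below, main values stand in parentheses, and causes were not tested beyond what each setting does. Without the row named ATG8, an alternative chosen after seeing the data, the members' median was 0.751 in snf1 at pH 8 (0.547), 0.325 in wild type at low glucose (-0.267), 0.008 in snf1 at low glucose (-0.032), 0.283 for wild type alkaline minus low glucose (0.456) and 0.404 for snf1 alkaline minus low glucose (0.295). Centring each array gave a median of -0.107 in snf1 at low glucose, and for snf1 alkaline minus low glucose a median of 0.422 and 1 called member (0), ATG13. Scaling each array to one spread gave medians of 0.714 in snf1 at pH 8 and -0.092 in snf1 at low glucose. Its medians were 0.066 for the genotype difference at low glucose (0.257) and 0.487 for snf1 alkaline minus low glucose. After scaling, the genotype difference at low glucose had 1 called member (3, of them 2 higher), the row named ATG8. Wild type alkaline minus low glucose had 2 (6, of them 4 higher), ATG1 and the row named ATG8. For snf1 alkaline minus low glucose 1 was called, ATG13. All of these were higher. A value on every array, which changes the members tested, gave medians of 0.344 in snf1 at pH 8 and 0.024 for snf1 alkaline minus low glucose, and a minimum of 2 arrays gave 0.296 in snf1 at pH 8. Averaging consecutive arrays leaves fewer samples, with 1 per low glucose group assumed to vary like the others. It gave 5 called members in wild type at pH 8 (8). Its medians were 0.06 in wild type at low glucose and 0.404 for snf1 alkaline minus low glucose. Calls of members in comparisons with low glucose are not counted here, because 1 sample per group has no spread of its own.

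Leaving out each array of the groups compared gave 5 to 7 called members in wild type at pH 8 (medians 0.555 to 0.782), 4 to 6 in snf1 at pH 8 (0.259 to 0.603), 0 to 0 for the genotype difference at pH 8 (-0.178 to -0.012), 6 to 6 in wild type at low glucose (-0.119 to -0.045), 0 to 0 in snf1 at low glucose (-0.005 to 0), 2 to 3 for the genotype difference there (0.088 to 0.407), 3 to 6 for wild type alkaline minus low glucose (0.361 to 0.578) and 0 to 1 for snf1 alkaline minus low glucose (0.235 to 0.464). Signs turned for uncalled values. ATG4 in wild type at pH 8 ran from -0.149 to 0.00706. The genotype difference at pH 8 ran from -0.228 to 0.029 for ATG4, -0.419 to 0.0239 for ATG1, -0.506 to 0.0768 for ATG7 and -0.182 to 0.231 for the row named ATG8. Snf1 values at low glucose ran from -0.28 to 0.0575 for ATG2, -0.049 to 0.33 for ATG7 and -0.339 to 0.0004 for ATG13. The genotype difference there ran from -0.0099 to 0.33 for ATG13 (-0.000416 after scaling), and wild type alkaline minus low glucose from -0.884 to 0.163 for ATG7 (0.342 after scaling).

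Whether replicate numbers pair the arrays was not settled. Deviations of same-numbered snf1 and wild type arrays correlated at -0.116, -0.386, -0.16 and 0.0701 at pH 8 and 0.287 at low glucose. At pH 8 differently numbered arrays gave -0.218 to 0.352, but same-numbered replicates 1 and 2 had opposite dyes in the genotypes. At low glucose differently numbered arrays gave -0.287, and 2 arrays per group force 1 size with either sign. The replicate block left 6 called members in wild type and 5 in snf1 at pH 8, and 3 for the genotype difference at low glucose.

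Over all genes, averaging consecutive arrays called 1683 in wild type at pH 8 (2766), 1262 in snf1 at pH 8 (2203) and 0 for the genotype difference there (51). Its counts in comparisons with low glucose are not given, for the reason stated above for the members. Main counts were 1696 in snf1 at low glucose and 1481 for the genotype difference at low glucose. They were 2178 for wild type alkaline minus low glucose and 564 for snf1 alkaline minus low glucose. Scaling called 2123 in wild type at low glucose (3405), 467 for the genotype difference there and 622 for wild type alkaline minus low glucose. The genotype difference at pH 8 called 30 from the alkaline arrays alone, 23 with consecutive arrays as a random block and 22 to 161 with an array left out. For snf1 alkaline minus low glucose these counts were 358 with the replicate block, 287 with the random block and 50 to 720 with an array left out. With an array left out, snf1 at low glucose called 817 or 1047, the genotype difference there 962 to 1255 and wild type alkaline minus low glucose 985 to 2238. Of the calls for wild type alkaline minus low glucose, 1007 of 2178 were higher, against 1143 of 2007 after centring and 464 of 622 after scaling. For snf1 110 of 564 were, against 156 of 439 and 172 of 404, and for the genotype difference at pH 8 18 of 51, against 20 of 40 after scaling.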
